A study of Mus musculus with 46 samples.

Results

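The genes described here encode 6 ligands and 3 receptors of the epidermal growth factor (EGF) receptor family: Areg, Ereg, Btc, Hbegf, Tgfa and Egf, and Egfr, Erbb2 and Erbb3. They are 9 of the 55487 genes listed in each library, and all 9 were found by symbol. The set was chosen by the measured levels of Areg, which was higher in every knockout experiment of the series, and the other 8 genes were taken as its family. The knockout-against-control values of Areg are therefore a description and carry no test. The other members, and Areg in the contrasts that played no part in the choice, were tested.

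RNA was sequenced from 46 mouse libraries in 11 groups, whose titles number them as biological replicates. The first experiment held islets labelled Tfam control (5 female and 3 male libraries) or Tfam KO (4 female and 2 male). The second held islets labelled Clec16a control (4 libraries on RFD, 6 on HFD) or Clec16a KO (4 on RFD, 5 on HFD), with diet names that the labels do not spell out. The third held livers labelled control (6 libraries), Mfn DKO (4) or Tfam KO (3), and the names of all 13, controls included, carry the letters AAV. Tfam encodes a protein that packages and transcribes mitochondrial DNA. CLEC16A controls mitophagy, by which a cell clears worn mitochondria, and the mitofusins of Mfn1 and Mfn2 fuse mitochondrial outer membranes. Islets were held in culture overnight before RNA was taken, and livers were flash frozen. The age and strain of the mice, the deleting enzyme and its promoter are not given in the sources used here. Sex is given for each library of the Tfam islets only.

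EGF family ligands are made as precursors that span the membrane and are released from the cell surface by ADAM proteases. Areg (amphiregulin), Egf and Tgfa bind EGFR, and Hbegf, Btc and Ereg bind both EGFR and ERBB4. ERBB2 has no known ligand of its own and pairs with the other receptors, and ERBB3 binds neuregulins and has little kinase activity. Bound receptors pair, phosphorylate each other and drive the RAS to ERK and PI3K to AKT cascades, and ERK activity in turn induces inhibitors such as the Sprouty and DUSP proteins. In the liver EGFR ligands are known as growth signals for hepatocytes during regeneration, and in the pancreas EGFR signaling is known for its part in β-cell growth.

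On the mouse genome build GRCm38, 3 of the ligand genes lie next to each other on chromosome 5. Ereg (ENSMUSG00000029377) spans chr5:91074622-91093646 and Areg (ENSMUSG00000029378) chr5:91139599-91148432, both on the plus strand and 45953 bases apart. Btc (ENSMUSG00000082361) lies 208829 bases beyond the end of Areg, at chr5:91357261-91402994 on the minus strand. Tgfa (ENSMUSG00000029999) spans chr6:86195223-86275719 on the plus strand, and Egf (ENSMUSG00000028017) spans chr3:129677565-129755316 on the minus strand. Hbegf carries the identifier ENSMUSG00000024486. The receptor genes are Egfr (ENSMUSG00000020122, chr11:16752203-16918158, plus), Erbb2 (ENSMUSG00000062312, chr11:98412470-98437716, plus) and Erbb3 (ENSMUSG00000018166, chr10:128567523-128589652, minus). Whether reads were counted by strand is not given in the sources used here, so reads of genes that overlap Egf, Egfr, Ereg, Erbb2 and Tgfa cannot be told apart from their own.

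Promoter windows from RefSeq on GRCm38.p6 each ran from 250 bases before to 50 bases after a start of transcription. They were taken for 6 of the 9 genes (Areg, Btc, Tgfa, Egf, Egfr and Erbb2). Hbegf was left out of this search, and no window was found by symbol for Ereg or Erbb3. The windows of Areg and Btc are shown because these neighbours were the ligands that were higher in both Tfam tissues and in the Mfn DKO livers. Each reads 5′ to 3′ along its gene, and capitals mark the full cyclic AMP response element TGACGTCA, the only match found. The Areg window is chr5:91139349-91139648 on the plus strand and the Btc window chr5:91402945-91403244 on the minus strand.
Areg: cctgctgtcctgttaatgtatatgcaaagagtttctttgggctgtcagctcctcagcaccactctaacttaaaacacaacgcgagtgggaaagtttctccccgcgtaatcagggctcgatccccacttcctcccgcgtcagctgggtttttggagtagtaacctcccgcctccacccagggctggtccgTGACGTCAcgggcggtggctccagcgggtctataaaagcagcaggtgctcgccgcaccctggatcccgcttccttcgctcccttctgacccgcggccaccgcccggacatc
Btc: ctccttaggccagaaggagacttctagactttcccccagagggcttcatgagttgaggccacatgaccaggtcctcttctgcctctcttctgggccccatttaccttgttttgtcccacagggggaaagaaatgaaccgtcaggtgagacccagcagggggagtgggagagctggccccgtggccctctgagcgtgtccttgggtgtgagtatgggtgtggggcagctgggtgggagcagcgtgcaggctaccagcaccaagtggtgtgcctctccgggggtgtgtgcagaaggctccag

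Both strands were searched for 3 motifs: TGACGTCA (present in 1.79% of 32851 promoter windows of this length), the AP-1 site TGACTCA or its complement TGAGTCA (5.2%), and the core of the amino acid response element, TGATGNAA or its complement TTNCATCA (3.97%). The Areg window held 1 match, TGACGTCA at chr5:91139538-91139545, whose first base lies 61 bases before the start. The windows of Btc, Tgfa, Egf, Egfr and Erbb2 held no match to these letters. A match is a run of letters and shows no binding.

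Depth was 55223041 to 83342809 counts in Tfam islet libraries, 16235173 to 55810879 in Clec16a islet libraries and 41961114 to 56894510 in liver libraries. The targeted transcript was lower in the knockout islets and livers of Tfam (log2 changes of -1.21 and -2.004) and in the Mfn DKO livers (Mfn1 -2.003, Mfn2 -2.04). In the Clec16a KO libraries the Clec16a transcript showed no fall: its log2 change was 0.13 on RFD and 0.08 on HFD (adjusted p = 0.612 and 0.740, edgeR's quasi-likelihood test). The Clec16a genotypes therefore rest on the labels alone. One library stood apart from its group: replicate 4 of Clec16a KO on HFD had 4.69 CPM (reads of a gene scaled to the size of the library) of Trib3, a stress-induced pseudokinase, against 58.1 to 92.7 CPM in the other 4 libraries of its group and 3.64 to 6.98 CPM in the HFD controls. Member values and pathway list counts of this group are given with and without it. Among the Tfam KO livers, replicate 3 had 73.1 CPM of Trib3 and replicates 1 and 2 had 227 and 292. No beta, alpha or delta cell marker was at 0 throughout any islet group, and summed hepatocyte markers were at 21531 CPM or more in every liver.

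Areg was close to absent in all control groups and present in every knockout group. In the Tfam islet controls it ran from 0 to 0.290 CPM, with 0.290, 0.214, 0.038, 0.041 and 0 CPM in the females and 0.155, 0.0536 and 0.280 CPM in the males. The Tfam KO islets had 10.3, 1.31, 5.24 and 4.88 CPM in females and 45.5 and 45.4 CPM in males. The groups did not overlap, as was so for 4.83% of the genes tested in the higher direction, and the lowest knockout library was 4.53 times the highest control. The fitted log2 changes were 5.57 in females and 8.12 in males, and 6.94 over both sexes, the rank of 14 from the top among 19752 genes.

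On RFD, Areg was at 0.0384, 0.156, 0.309 and 0.330 CPM in the Clec16a controls and at 11.2, 10.9, 8.26 and 10.5 CPM in the Clec16a KO islets. The lowest of these knockout libraries was 25.0 times the highest control, and 7.74% of genes were higher without overlap in this comparison. On HFD, the controls had 0.255, 0.256, 0.408, 0.166, 0.0713 and 0.267 CPM, and the KO islets 48.5, 35.5, 20.9, 0.0524 and 31.3 CPM. The library at 0.0524 CPM was replicate 4, which lay below all 6 controls, while the other 4 knockout libraries lay above all of them. On HFD 1.24% of genes were higher in KO without overlap. The fitted log2 changes were 5.58 on RFD and 6.92 on HFD, or 7.25 on HFD without replicate 4.

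In the livers, Areg counts came to 8 reads over the 6 control libraries, 3 of which had none, and the highest control was at 0.0822 CPM. The Mfn DKO livers had 7.09, 20.5, 9.96 and 23.0 CPM, and the Tfam KO livers 202, 178 and 16.9 CPM. The lowest Mfn DKO library was 86.3 times the highest control, and the lowest Tfam KO library 205 times. Among all genes 8.95% in Mfn DKO and 10.7% in Tfam KO were higher without overlap. Fitted log2 changes were 8.89 and 12.01, ranks of 4 and 1 from the top among 17024 genes. With controls this near 0 the fitted values depend on the prior count that the model adds. Both liver comparisons share the same 6 controls.

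**Figure D1:**
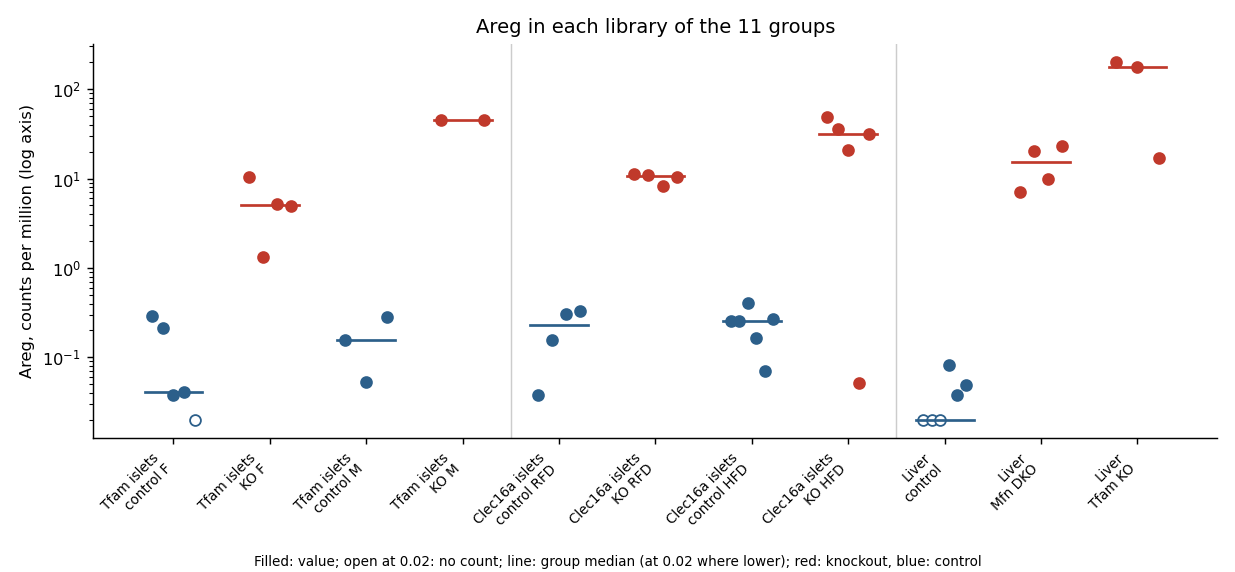
Areg in each of the 46 libraries, in CPM on a log axis, by group, with a line at each group median. Open circles at the foot of the axis stand for libraries with no count. Control libraries lie at or below 0.408 CPM and knockout libraries at or above 1.31 CPM, except replicate 4 of Clec16a KO on HFD at 0.0524 CPM.

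Per transcript length, in the authors' deposited TPM (which scales for transcript length), Areg was at 0.0506 ± 0.0615 TPM (SD, n = 6) in control livers, 32.8 ± 16.8 TPM (n = 4) in Mfn DKO livers and 389 ± 308 TPM (n = 3) in Tfam KO livers. Tfam islets had 0.213 ± 0.243 TPM (n = 5) in control females, 0.291 ± 0.199 TPM (n = 3) in control males, 12.7 ± 8.89 TPM (n = 4) in KO females and 103 ± 4.54 TPM (n = 2) in KO males. The Clec16a KO islets had 18.0 ± 2.23 TPM (n = 4) on RFD and 52.9 ± 33.6 TPM (n = 5) on HFD, or 66.2 ± 18.5 TPM without replicate 4. The order of the means was therefore Tfam KO livers, male Tfam KO islets, Clec16a KO islets on HFD, Mfn DKO livers, Clec16a KO islets on RFD and female Tfam KO islets. Of the neighbours in this order, only the male Tfam KO islets and the Clec16a KO islets on HFD had ranges that did not overlap. The Tfam KO livers ran from 37.3 to 610 TPM of Areg, the lowest lying inside the Mfn DKO range of 15.2 to 49.5 TPM. In bulk tissue, a change in the share of cells that make a transcript and a change per cell cannot be told apart.

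Markers of lymphoid and mast cells, which are known sources of Areg, summed to between 0.333 and 3.44 CPM over 6 genes over all 11 groups. Few of them could be tested. In the Clec16a KO islets 3 were, with median log2 changes of 1.32 on RFD and 1.06 on HFD and 0 called. In the Tfam KO livers 1 of 3 was called higher, beside 18.1% of all genes. Beta-cell markers were lower where Areg was higher in the Tfam islets: their summed level was 172461 to 272053 CPM in the controls and 92003 to 126736 CPM in the KO islets. All 6 were called lower, beside 9.29% of all genes. In the Clec16a KO islets 2 of 6 were called lower on each diet, where 7.52% (RFD) and 9.57% (HFD) of all genes were called in either direction. Endothelial markers, summed over 4 genes, were at 255 to 352 CPM in the Clec16a controls, 472 to 584 CPM in the KO islets on RFD and 300.4 to 558 CPM in those on HFD. Of 6 fibroblast or stellate markers, 2 were called higher in the Tfam islets, beside 11.6% of all genes. In the Clec16a islets 2 were on RFD (beside 3.99% of all genes) and 4 on HFD (5.62%). In Mfn DKO livers 2 were called higher (5.23%) and in Tfam KO livers 1 (18.1%), with 0 called lower in any. The part of these cell types in the Areg values was not tested.

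Among the contrasts that the choice of Areg did not use, diet was tested first. In control islets no difference of Areg between HFD and RFD was detected (log2 difference 0.07, 95% interval -2.30 to 2.44, adjusted p = 0.999, edgeR's quasi-likelihood test), in a contrast where 0.0406% of all genes were called. In Clec16a KO islets it was higher on HFD in 4 of 5 libraries, with a log2 difference of 1.41 (SE 0.68, unadjusted p = 0.0495, adjusted p = 0.910), where 0.0116% of genes were called. Without replicate 4 of the HFD group that difference was 1.74 (SE 0.26) with an adjusted p of 0.00823 by the same test. That fit leaves out the 1 HFD library seen to lack Areg, so its p is no independent test of diet. The difference of the Clec16a effect on Areg between the diets was 1.34 (SE 1.41), again built from the changes that chose Areg and given without a test.

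The male minus female difference of the Tfam effect on Areg was 2.55 on the log2 scale (SE 1.18), a value built from the changes that chose Areg and given without a test. Between the knockout livers, the Tfam KO minus Mfn DKO difference of Areg was 3.13 (SE 0.66, adjusted p = 0.0736, not called), in a contrast that called 0.294% of genes. Replicate 3 of the Tfam KO livers, at 16.9 CPM, lay inside the Mfn DKO range. Without it the difference was 3.65 with an adjusted p of 0.000333, in a fit that called 4204 genes in place of 50. That fit leaves out the Tfam KO library lowest in Areg, so its p is no independent test. Without replicate 1 the difference was 2.69 (adjusted p = 0.126) and without replicate 2 it was 2.86 (adjusted p = 0.172). DESeq2's Wald test on all libraries gave an adjusted p of 0.0194 for this Areg difference.

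Because the ligands share receptors, their levels per transcript length were added and the share of each was taken. Areg made up 1.72% and 2.005% of the summed ligand TPM in female and male Tfam control islets, 3.32% and 3.51% in Clec16a controls on RFD and HFD, and 0.728% in control livers. The share was 39.5 ± 18.2% (SD, n = 4) in female and 85.4 ± 0.773% (n = 2) in male Tfam KO islets. It was 46.0 ± 4.81% (n = 4) in Clec16a KO islets on RFD and ran from 0.62% to 76.5% in those on HFD. In Mfn DKO and Tfam KO livers it was 70.8 ± 12.2% (n = 4) and 88.4 ± 10.5% (n = 3).

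The ligands that Areg joined differed by tissue. In control islets Egf, Hbegf and Tgfa each gave a large share, and in control livers Tgfa alone gave 79.6% of the ligand TPM. The mean sum over the 6 ligands went from 7.47 TPM in control livers to 44.2 TPM in Mfn DKO and 416 TPM in Tfam KO livers. For the Tfam islets it went from 12.3 to 29.0 TPM in females and from 14.5 to 120 TPM in males. These sums and shares contain Areg and are given as description.

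**Figure D2:**
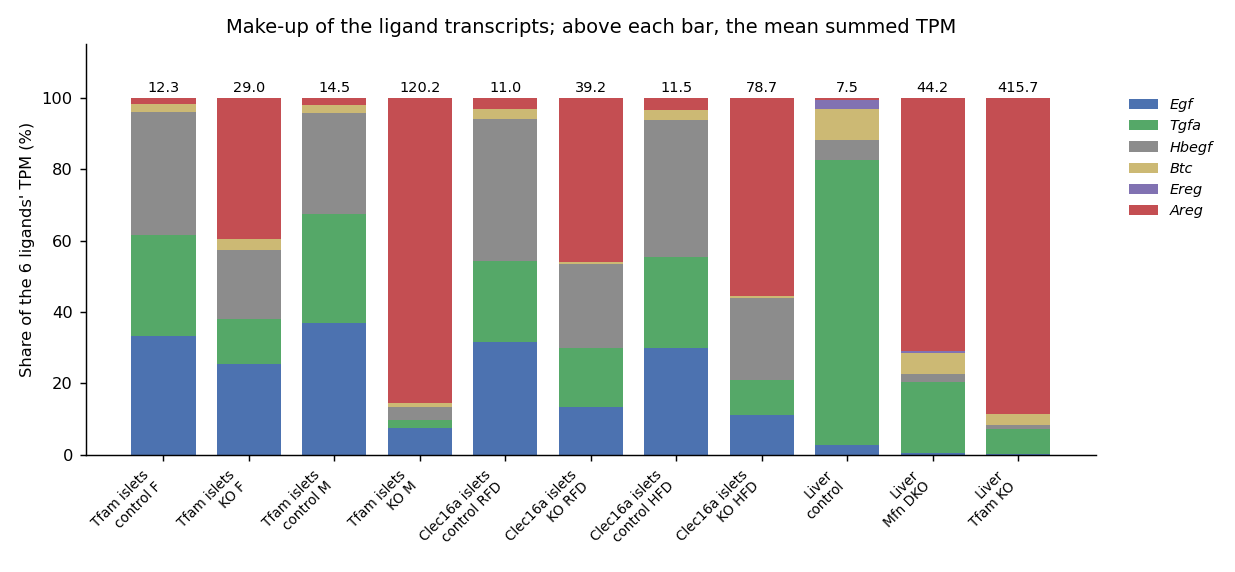
Share of each of the 6 ligands in their summed TPM, as the mean over the libraries of each of the 11 groups, in percent. Areg gives at most 3.51% in the control groups and from 39.5% to 88.4% in the knockout groups.

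The ligand that came nearest to Areg in pattern was Btc (betacellulin), but it rose in fewer settings and by far less. In the Tfam control islets Btc was at 0.507, 0.285, 0.870, 0.705 and 0.592 CPM in females and 0.786, 0.496 and 0.756 CPM in males. The KO islets had 1.53, 1.08, 1.51 and 1.52 CPM in females and 1.63 and 2.47 CPM in males, so that all 6 lay above all 8 controls. Of all genes tested 4.83% were higher without overlap there. The log2 change was 1.38 (SE 0.22, adjusted p = 0.000301, edgeR's quasi-likelihood test). Of the 7 members other than Areg that could be tested in this comparison, 5 were called, beside 20.9% of all 19752 genes. Btc, Egf, Egfr and Erbb3 were higher and Tgfa was lower, where 11.6% of genes were called higher and 9.29% lower. Btc was called in each sex alone, with 1.25 in females (adjusted p = 0.00869) and 1.59 in males (adjusted p = 0.0127, lost in 2 of 5 fits without 1 library), where 10.8% and 8.93% of genes were called.

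In the livers Btc was at 2.74, 2.09, 1.03, 1.03, 0.586 and 1.24 CPM in the controls, 4.21, 3.88, 4.66 and 3.22 CPM in Mfn DKO, and 10.6, 14.8 and 4.58 CPM in Tfam KO. Neither knockout group overlapped the controls, where 8.95% of all genes in Mfn DKO and 10.7% in Tfam KO were higher without overlap. The log2 change was 1.46 in Mfn DKO (SE 0.39, adjusted p = 0.0344) and 2.79 in Tfam KO (SE 0.41, adjusted p = 0.00107). It was the only member other than Areg called in the Mfn DKO livers, where 9.87% of genes were called and 5.23% called higher, and that call was lost in 7 of the 10 fits that left out 1 library (adjusted p up to 0.0885). In the Clec16a islets Btc did not move detectably: its log2 change was 0.03 on RFD (95% interval -0.61 to 0.68) and -0.02 on HFD.

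Ereg (epiregulin), the other neighbour of Areg, was at 0 in all but 2 of the 33 islet libraries, and those had 0.0256 and 0.0264 CPM, 1 of each genotype. It was too low to be tested in islets. In the livers it was detected throughout, at 0.132 to 0.495 CPM in controls, 0.280 to 0.504 CPM in Mfn DKO and 0.557, 1.62 and 0.268 CPM in Tfam KO. The Tfam KO change of 1.27 missed the threshold (adjusted p = 0.0685) and was 1.65 without replicate 3 (adjusted p = 0.0124) and 0.29 without replicate 2 (adjusted p = 0.728). In the Mfn DKO livers the change was 0.15.

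Hbegf (heparin-binding EGF-like growth factor) rose in the Clec16a KO islets and the Tfam KO livers. On RFD it was at 9.64, 17.2, 6.84 and 8.43 CPM in controls and 20.5, 15.2, 23.4 and 23.1 CPM in KO islets, a log2 change of 0.96 (SE 0.23, adjusted p = 0.0151, edgeR's quasi-likelihood test). The groups overlapped through the control at 17.2 CPM, and the call was lost in 2 of 8 fits, without control replicate 3 or 4 (adjusted p = 0.0570 and 0.0591). On HFD the KO islets had 32.3, 31.2, 25.7, 18.1 and 24.9 CPM against 8.21 to 11.8 CPM in the controls, a change of 1.36 (SE 0.19, adjusted p = 0.000433) with no overlap. Of all genes 1.24% were higher without overlap there. Replicate 4, which lacked the rise of Areg, was the lowest of the 5 at 18.1 CPM but still above every control. Without it the change was 1.47.

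Hbegf in the Tfam islets did not differ detectably, at 8.37 to 13.3 CPM in controls and 7.45 to 9.39 CPM in KO (log2 change -0.17, 95% interval -0.36 to 0.03, adjusted p = 0.279). In deposited TPM the direction turned, with means of 4.14 in controls and 4.90 in KO islets. In the livers it was a minor transcript: 0.548, 0.792, 1.10, 1.31, 0.795 and 0.845 CPM in controls and 1.40, 1.78, 0.887 and 2.78 CPM in Mfn DKO (change 0.93, adjusted p = 0.194). The Tfam KO livers had 1.52, 7.67 and 2.10 CPM, all above the controls (as was so for 10.7% of all genes), with a change of 2.07 (SE 0.47, adjusted p = 0.00721). That rise rested on replicate 2, which also had the lowest summed hepatocyte markers of all livers, 21531 CPM against 91275 to 135842 CPM in controls. Without replicate 2 the Hbegf change was 1.007 (adjusted p = 0.0975).

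Tgfa (transforming growth factor alpha) moved in opposite directions in the islet experiments. In the Clec16a islets on RFD it was at 6.49, 8.36, 7.32 and 8.64 CPM in controls and 21.8, 16.7, 16.4 and 24.6 CPM in KO, a log2 change of 1.36 (SE 0.24, adjusted p = 0.00358) with no overlap. Of all genes 7.74% were higher without overlap there. On HFD the KO islets had 15.2, 19.8, 19.6, 7.52 and 24.2 CPM against 8.21 to 10.1 CPM in controls, a change of 0.90 (SE 0.20, adjusted p = 0.00761). Replicate 4 at 7.52 CPM was below every control and the other 4 were above every control. Without it the change was 1.10 (adjusted p = 9.98e-06), in a fit that leaves out the 1 KO library without the rise.

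The Tfam KO islets had less Tgfa. Controls were at 11.5, 13.1, 7.91, 8.64 and 12.5 CPM in females and 12.1, 13.3 and 14.3 CPM in males, and KO islets at 6.05, 7.72, 8.47 and 8.07 CPM in females and 5.48 and 7.83 CPM in males. The log2 change was -0.67 (SE 0.14, adjusted p = 0.00294), and 4 of the 6 KO libraries lay below all controls. The fall was called in males alone (-0.99, adjusted p = 0.0124, lost in 1 of 5 fits) and not in females alone (-0.50, adjusted p = 0.0627). In deposited TPM the female means were nearer, 3.53 in controls and 3.27 in KO, and the male means were 4.42 and 2.83. In the livers Tgfa was at 14.5 to 24.4 CPM in controls, 16.5 to 23.1 CPM in Mfn DKO and 26.1, 38.1 and 17.2 CPM in Tfam KO. The Tfam KO change in livers was 0.58 (adjusted p = 0.0692) and 0.26 without replicate 2 (adjusted p = 0.467). It was 0.69 with an adjusted p of 0.0309 when the level of Xist, which separated the liver libraries into 6 low and 7 high ones, was added to the fit.

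Egf itself rose slightly in the islets. In the Clec16a experiment controls on RFD had 14.9 to 23.1 CPM and KO islets 23.1 to 32.4 CPM, a log2 change of 0.55 (SE 0.15, adjusted p = 0.0313) that was lost in 6 of the 8 fits that left out 1 library. On HFD the controls had 16.6 to 22.4 CPM and the KO islets 34.5, 29.6, 31.5, 21.2 and 28.1 CPM, a change of 0.63 (SE 0.13, adjusted p = 0.00483). Replicate 4, at 21.2 CPM, was again the one inside the control range, and the Egf change without it was 0.73. In the Tfam islets Egf changed by 0.38 (SE 0.11, adjusted p = 0.0237), from 16.7 to 28.7 CPM in female and 22.8 to 32.3 CPM in male controls to 25.0 to 32.0 CPM in female and 38.0 and 36.1 CPM in male KO islets. That call was lost without the sex term (adjusted p = 0.0789) and without any of 3 single KO libraries (female replicates 1 and 3, male replicate 1; adjusted p = 0.0509 to 0.0609). The livers had little Egf, 0.606 to 2.18 CPM over all 13, with no detectable difference.

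**Figure D3:**
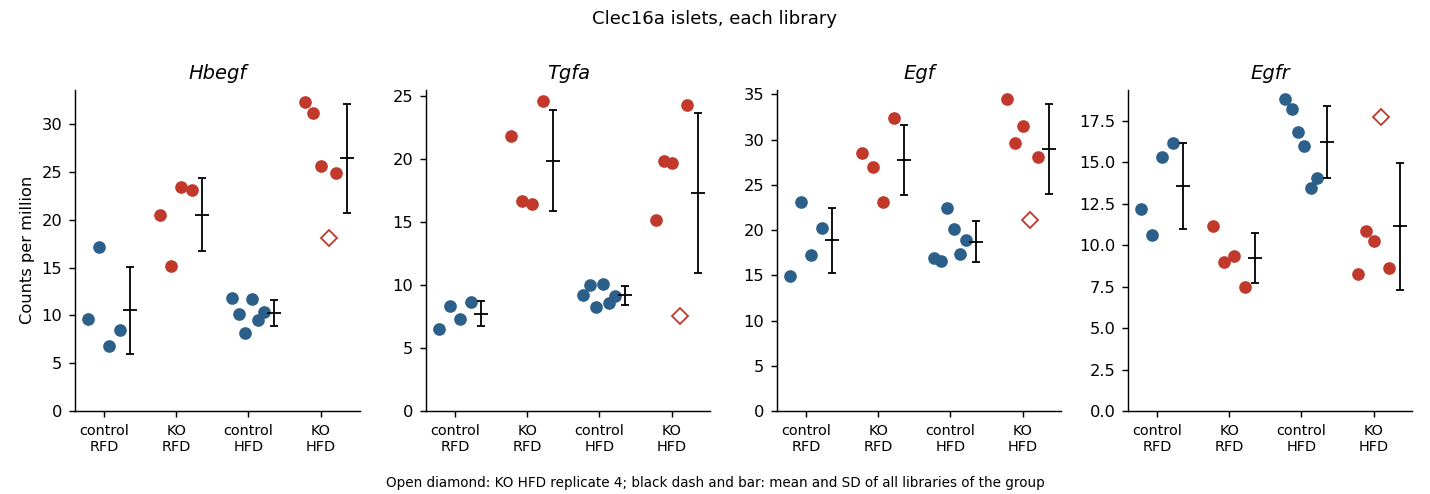
Hbegf, Tgfa, Egf and Egfr in each Clec16a islet library, in CPM, by genotype and diet. The 3 ligands are higher and Egfr is lower in most KO libraries, and replicate 4 on HFD, drawn as an open diamond, lies near the controls for Tgfa (7.52 CPM), Egf (21.2 CPM) and Egfr (17.7 CPM).

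In the Clec16a experiment 3 of the 7 tested members other than Areg were called on RFD and 3 on HFD, the same Hbegf, Tgfa and Egf, all higher, where 7.52% and 9.57% of the 17254 genes tested were called, and 3.99% and 5.62% called higher. The file names give a sequencing lane for these libraries, and within each of the lanes 7 and 8 the mean log2 level of Hbegf, Tgfa and Egf was higher in KO on both diets. The smallest within-lane differences were 0.77 for Hbegf, 0.61 for Tgfa and 0.51 for Egf. On RFD lane 7 held 3 KO and 2 control libraries, and lane 8 only 1 KO library and 2 controls. On HFD lane 7 held 2 KO and 3 control libraries and lane 8 held 3 of each. No difference in the effect between the diets was called for any of them, in a contrast that called 0% of genes with 406 at an unadjusted p under 0.05.

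Among the receptors, Egfr rose in the Tfam islets, and in the Clec16a islets its fall was called only without 1 library. In Tfam controls Egfr was at 19.01, 19.3, 32.2, 18.5 and 27.7 CPM in females and 21.3, 18.2 and 15.3 CPM in males, and in KO islets at 31.1, 32.3, 32.3 and 34.1 CPM in females and 32.9 and 31.9 CPM in males. The log2 change was 0.60 (SE 0.13, adjusted p = 0.00265, edgeR's quasi-likelihood test), and the control at 32.2 CPM kept the groups from separating. The change was 0.83 in males (adjusted p = 0.0191, lost in 4 of 5 fits without 1 library) and 0.47 in females, where it was not called (adjusted p = 0.0577).

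In the Clec16a islets on RFD Egfr was at 12.2, 10.6, 15.3 and 16.1 CPM in controls and 11.1, 8.98, 9.37 and 7.48 CPM in KO, a change of -0.56 that was not called (SE 0.20, adjusted p = 0.103). On HFD the controls had 13.5 to 18.8 CPM and the KO islets 8.25, 10.9, 10.3, 17.7 and 8.63 CPM, a change of -0.53 (SE 0.17, adjusted p = 0.0598). The value of 17.7 CPM was that of replicate 4, and the other 4 libraries lay below every control. Without replicate 4 the Egfr change was -0.77 (SE 0.14) with an adjusted p of 0.000770, which made 4 members called in place of 3, while the count over all genes went from 1652 to 3369. That fit leaves out the 1 KO library inside the control range, so its p is no independent test. Within lane 8, which held that library, the HFD difference was -0.20 in mean log2 level, and within lane 7 it was -1.04.

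Egfr was the most abundant member of the family in control livers, at 50.7 ± 26.2 TPM (SD, n = 6), with Erbb3 at 48.3 ± 18.9 TPM, Tgfa at 5.96 ± 1.2 TPM and every other member under 1 TPM. Its level varied widely within the control livers. Controls had 434, 348, 134, 187, 105 and 432 CPM, Mfn DKO livers 580, 306, 313 and 243 CPM, and Tfam KO livers 429, 41.7 and 132 CPM. The log2 changes of 0.40 in Mfn DKO (95% interval -0.70 to 1.49) and -0.44 in Tfam KO (-1.67 to 0.79) were not called, and in deposited TPM the Tfam KO mean of 55.1 lay above that of the controls. The control livers separated by Xist, the RNA of the inactive X chromosome: the 3 with Xist under 10 CPM had 348 to 434 CPM of Egfr and the 3 above had 105 to 187 CPM. In Mfn DKO livers the 2 low-Xist libraries had 313 and 580 CPM and the 2 high ones 243 and 306 CPM, and in Tfam KO livers the low one had 429 CPM and the high ones 41.7 and 132 CPM. Control Btc separated in the same way, at 1.24 to 2.74 CPM in the low-Xist livers and 0.586 to 1.03 CPM in the high ones. So did Tgfa, at 19.4 to 24.4 and 14.5 to 15.5 CPM, and, the other way, Egf, at 0.845 to 1.05 and 1.09 to 1.21 CPM. The remaining members overlapped there. Areg in Mfn DKO livers was at 7.09 and 9.96 CPM in the low-Xist libraries and 20.5 and 23.0 CPM in the high ones. In Tfam KO livers the low-Xist one had the most Areg, 202 CPM. The sex of the livers is not given in the labels, and this split was found in the data.

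Erbb3 rose weakly in the Tfam islets. It was at 5.69 to 10.1 CPM in Tfam controls and 7.98 to 11.2 CPM in KO, a log2 change of 0.41 (SE 0.13, adjusted p = 0.0302) that was lost in 7 of 14 fits without 1 library (adjusted p up to 0.0925). In livers it was at 219, 173, 58.1, 146, 112 and 111 CPM in controls, 90.7 to 130 CPM in Mfn DKO and 31.1, 54.4 and 122 CPM in Tfam KO. The Tfam KO change of -0.98 (SE 0.42) was not called by edgeR's quasi-likelihood test (adjusted p = 0.0962) but was by DESeq2's Wald test (adjusted p = 0.0464), and without replicate 3 it was -1.70 (adjusted p = 0.00662) but -0.63 without replicate 1 (adjusted p = 0.304). In the Mfn DKO livers it was -0.34, and in the Clec16a islets 0.19 on RFD and 0.15 on HFD, none of them called.

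Erbb2 was the scarcest receptor, and among the knockout comparisons it was called in male Tfam islets alone. Tfam islets had 0.670 to 0.742 CPM in control males and 1.46 and 2.94 CPM in KO males, a log2 change of 1.62 (SE 0.40, adjusted p = 0.0196). That call was lost in 3 of 5 fits without 1 library, with 1.03 (adjusted p = 0.304) without KO male replicate 2. Over both sexes the change was 0.31 (95% interval -0.39 to 1.01, adjusted p = 0.601). The difference of the Tfam effect between the sexes was 2.09 for Erbb2 (SE 0.51, unadjusted p = 0.000891). It did not pass edgeR's quasi-likelihood test over all genes (adjusted p = 0.542), in a contrast that called 0% of genes with 1230 at an unadjusted p under 0.05, and did in DESeq2's Wald test (adjusted p = 0.0423). In the Clec16a islets its changes were -0.03 and -0.11, and in the livers 0.14 in Mfn DKO and 0.77 in Tfam KO (adjusted p = 0.137).

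**Figure D4:**
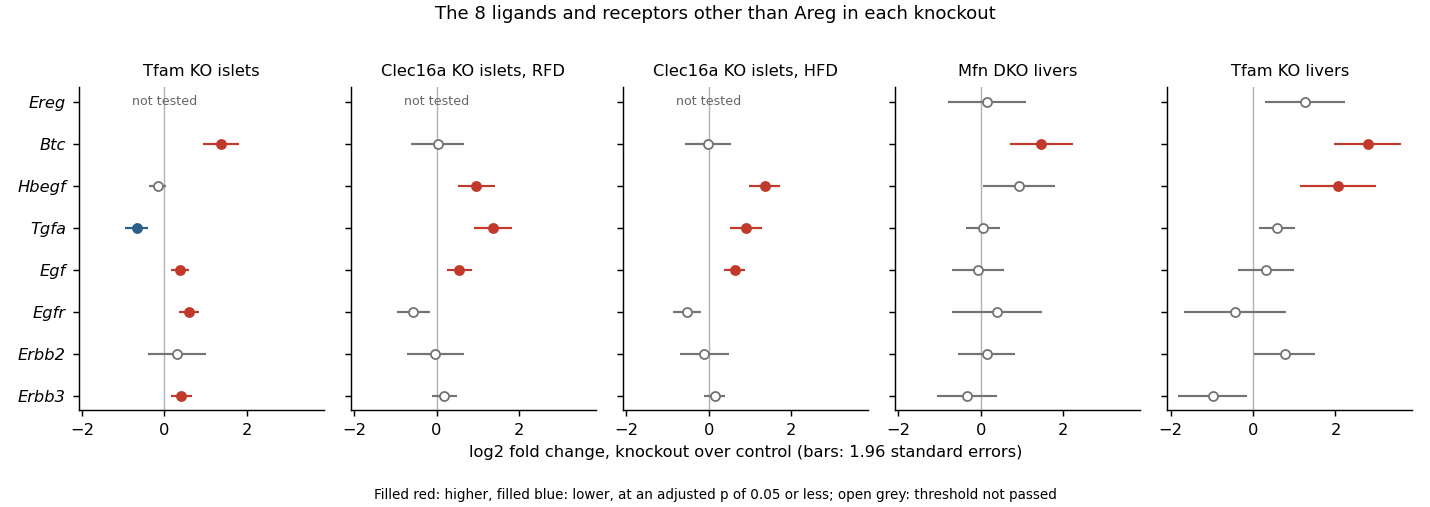
Fitted log2 fold change of the 8 members other than Areg in the 5 knockout-against-control comparisons, with 95% intervals and filled points where the change was called. All changes lie between -0.98 and 2.79, and Btc is filled in the Tfam islets and in both knockout livers.

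In the Tfam KO livers 2 of the 8 members other than Areg were called, Btc and Hbegf, both higher, where 29.3% of the 17024 genes were called and 18.1% called higher. The count depended on single libraries: 5 members were called without replicate 3 (Btc, Hbegf, Ereg and Tgfa higher, Erbb3 lower), when 7330 genes in all were called, and 1 without replicate 2 (Btc). Replicate 3 had 91364 CPM of summed hepatocyte markers, and replicates 1 and 2 had 55966 and 21531 CPM. Mfn DKO livers had 74265 to 92694 CPM. The part of this loss of hepatocyte transcripts in the receptor and ligand values was not tested.

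**Figure D5:**
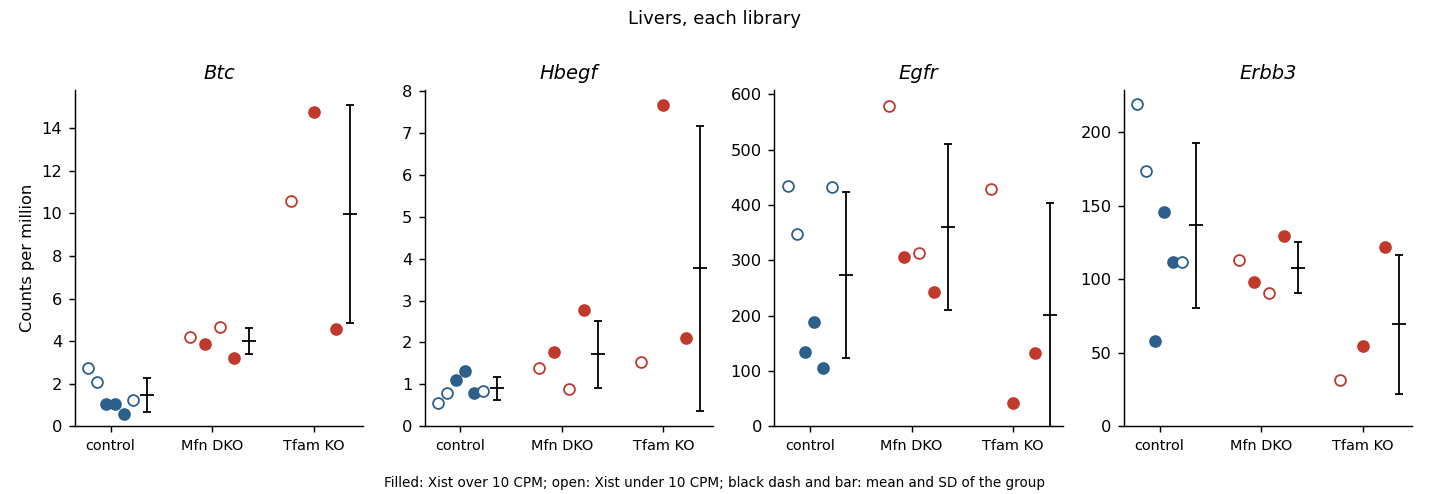
Btc, Hbegf, Egfr and Erbb3 in each liver library, in CPM, by group, with the group mean and SD, filled where Xist was over 10 CPM and open where it was under. Btc lies above all 6 controls in all 7 knockout livers, and the Egfr ranges of the 3 groups overlap.

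The remaining ERBB ligands and the receptor Erbb4 were examined as a list of 6 genes (Epgn, Nrg1 to Nrg4, Erbb4), of which 2 to 5 were expressed enough to test. Nrg1 (neuregulin 1, a ligand of ERBB3 and ERBB4) was called higher in both liver knockouts, by 2.96 in Mfn DKO (SE 0.58, adjusted p = 0.00876) and 5.75 in Tfam KO (SE 0.63, adjusted p = 0.000209). Tfam KO livers had 19.5, 29.6 and 2.17 CPM of Nrg1, replicate 3 being the low one. Of all genes 9.87% were called in Mfn DKO and 29.3% in Tfam KO livers. None of this list was called in the 3 islet comparisons. Its median log2 change was 0.27 in Mfn DKO and -0.01 in Tfam KO livers, against 0.02 and 0.03 over all genes.

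Of 5 genes that act in ligand release, Rhbdf2, which escorts the protease ADAM17, was the 1 called in the Tfam islets (higher by 0.39, adjusted p = 0.0443), where 20.9% of all genes were called. In the Tfam KO livers Adam10, a ligand-releasing protease, and Rhbdf1 were called higher, by 1.07 (adjusted p = 0.00397) and 0.67 (adjusted p = 0.0449), where 29.3% of all genes were called. Without replicate 2 of those livers 1 was called higher, where fits without 1 library called 2504 to 7330 genes in all. In the Clec16a islets and the Mfn DKO livers 0 of 5 were called. On HFD without replicate 4, 1 of 5 was called higher, when 3369 genes in all were called in place of 1652.

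Most of the 22 signal transducers of the receptors were not called. In the Tfam islets, where 20.9% of all genes were called, 3 were called higher, among them the kinase Akt2 (0.54) and the adaptor Gab2 (0.94), and 3 lower, among them the adaptor Shc1 (-0.39). In the Clec16a islets 0 were called on RFD, beside 7.52% of all genes. On HFD, where 9.57% of all genes were called, 1 was, Mapk3, which encodes the kinase ERK1 (-0.34). Without replicate 4 of that group 1 was called higher and 3 lower, when 3369 genes in all were called in place of 1652. Mfn DKO livers had 1 higher and 2 lower (Plcg1, -0.79, and Araf, -0.29). Tfam KO livers had 3 higher, among them Nras (0.58) and Gab2 (1.304), and 1 lower. Of all genes 9.87% and 29.3% were called in these livers. Median changes of the list lay between -0.06 and 0.00, and those of all genes between -0.01 and 0.03.

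Of 16 feedback inhibitors of the pathway, 4 were called higher and 0 lower in the Clec16a islets on RFD, and 5 higher and 0 lower on HFD, where 3.99% and 5.62% of all genes were called higher. All 4 endothelial markers were called higher on both diets as well, and their part in these changes was not tested. Spry4, a Sprouty inhibitor of receptor signaling, changed by 1.56 on RFD (adjusted p = 0.00199) and 1.11 on HFD (adjusted p = 0.00230). Dusp6, the phosphatase that removes the activating phosphates of ERK, changed by 1.37 (adjusted p = 0.00530) and 1.32 (adjusted p = 0.00126). On HFD Dusp6 was at 25.9 to 42.4 CPM in 4 KO libraries, 10.6 CPM in replicate 4 and 8.70 to 13.4 CPM in controls. Without replicate 4, 7 of the list were called higher and 2 lower, in a fit that called 3369 genes in all in place of 1652. The list's median change was 0.29 on RFD and 0.17 on HFD, against 0.00 over all genes.

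Among the feedback inhibitors in the Tfam islets, 0 were called higher and 1 lower (Socs5, -0.16, adjusted p = 0.0328, edgeR's quasi-likelihood test). Of all genes 11.6% were called higher and 9.29% lower there. Spry4 fell in both livers, by 1.47 in Mfn DKO (adjusted p = 0.0298) and 1.36 in Tfam KO (adjusted p = 0.0283), by the same test. In the Mfn DKO livers 1 of 16 was called higher and 1, Spry4, lower, with a median change of 0.06 for the list. Of all genes 9.87% and 29.3% were called in these livers. In the Tfam KO livers 3 of 16 were called higher, near the 18.1% of all genes called higher there. Among them were Dusp4 at 4.81 (adjusted p = 0.00107) and Dusp5 at 1.93 (adjusted p = 0.00413), both phosphatases of ERK and related kinases. Leaving out replicate 3 gave 4 higher and 2 lower there, and leaving out replicate 2 gave 2 higher and 0 lower. Fits of these livers without 1 library called 2504 to 7330 genes in all, the most without replicate 3.

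Of 14 tested genes known to respond to growth factors, 3 were called higher and 0 lower in the Clec16a islets on RFD, and 3 higher and 1 lower on HFD. Of all genes 3.99% (RFD) and 5.62% (HFD) were called higher. Etv5, an ETS transcription factor induced by ERK, changed by 2.63 on RFD (adjusted p = 0.00263) and 2.20 on HFD (adjusted p = 0.000920), and its relative Etv4 by 2.23 and 2.37. Replicate 4 on HFD had 10.5 CPM of Etv5, where the other KO libraries had 60.3 to 73.2 CPM and the controls 7.77 to 16.8 CPM. Without it 6 of the list were called higher and 1 lower on HFD, when 3369 genes in all were called in place of 1652. In the Tfam islets the calls were 1 higher and 2 lower of 14, near the 20.9% of all genes called there. Myc changed by 1.86 (adjusted p = 1.94e-06), Ccnd1 by -0.50 and Etv5 by -0.47 (adjusted p = 0.0106, edgeR's quasi-likelihood test).

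In the livers the response genes were mixed. Mfn DKO had 0 of 15 called higher and 2 lower, Ier2 (-0.66) and Phlda1 (-1.78), beside 9.87% of all genes called. Tfam KO had 5 higher, among them the urokinase receptor Plaur (2.24), and the same Ier2 (-0.99) and Phlda1 (-2.59) lower. There 29.3% of all genes were called and 18.1% called higher. Without replicate 2 of the Tfam KO livers 0 were called higher, where fits without 1 library called 2504 to 7330 genes in all. The 2 liver comparisons share their controls.

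The integrated stress response, the program that ATF4 drives when translation is slowed, was higher in all 5 knockout comparisons. Of its 18 tested genes, 17 were called higher in the Tfam islets, 14 and 13 in the Clec16a islets on RFD and HFD, 12 in Mfn DKO and 15 in Tfam KO livers, with 0 called lower in any. The shares of all genes called higher were 11.6%, 3.99%, 5.62%, 5.23% and 18.1%, in the same order. On HFD without replicate 4 the count was 16 higher and 0 lower, when 3369 genes in all were called in place of 1652. In Tfam KO livers without replicate 3 the count was 15 higher and 1 lower, when 7330 genes in all were called in place of 4992. Median changes were 1.43, 1.31, 1.18, 2.55 and 3.92 on the log2 scale, against -0.01 to 0.03 over all genes. Trib3 was among the 3 with the smallest adjusted p in the Tfam islets (5.25), on HFD (3.57), in Mfn DKO (4.22) and in Tfam KO livers (5.43). Whether this program bears on Areg was not tested. YAP target genes were a list of 8 that includes the matrix protein Ccn2. In Tfam KO livers 4 of them were called higher and 1 lower (Ccn2 2.91, Ajuba 2.16, Ankrd1 3.89), beside 18.1% of all genes called higher. Without replicate 2 of those livers 2 were called higher and 0 lower, where fits without 1 library called 2504 to 7330 genes in all. None of the YAP targets was called in the other 4 comparisons. On HFD without replicate 4, 2 of 7 were called higher, again beside 3369 genes in all.

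The genes whose pattern was most like that of Areg were sought over the 11 group means of log2 CPM, centred within each experiment, among 14503 genes measured in all 3 experiments. By Pearson r they were Greb1l (0.984), Eif4g3 (0.978), the cell-cycle inhibitor Cdkn1a (0.978), the monocarboxylate transporter family member Slc16a6 (0.976) and Sel1l3 (0.976). The means share libraries and a common split into knockouts and controls, so these values are descriptive. The 5 genes were picked for following Areg, itself chosen for rising in the knockouts. Their knockout-against-control changes are therefore a description and carry no test. By Spearman rho over the same means the order changed: Eif4g3 was at rank 3, Greb1l at 21, Slc16a6 at 49, Sel1l3 at 158 and Cdkn1a at 280. Fitted log2 changes of Cdkn1a were 1.90 in the Tfam islets and 4.69 in the Tfam KO livers, and those of Slc16a6 were 0.92 and 1.69. Greb1l changed by 1.99 in the Tfam islets and 3.09 in the Tfam KO livers, but by 0.84 on RFD and 0.92 on HFD. Eif4g3 and Sel1l3 changed by 0.39 and 0.50 on RFD, and by 0.62 and 0.46 in Mfn DKO livers. Among the members themselves, Btc was the closest with r = 0.871, at rank 348 (650 by rho). Egf stood at 0.722, Hbegf at 0.678, Erbb2 at 0.541 and Tgfa at 0.178, and Erbb3 and Egfr at -0.06 and -0.08.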

How the data were processed

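The deposited tables gave, per the file headers, a raw count, a TPM and a CPM for 55487 genes in each of 46 libraries, and the authors' CPM was the count over the library total. The submitters' processing notes name GRCm38, STAR 2.6.1b, RSEM 1.3.1, featureCounts, FastQC, MultiQC and DESeq2 without their roles. For each of the 3 experiments, edgeR 4.0.16 under R 4.3.3 (quasi-likelihood test, TMM scaling, filterByExpr) was run on the deposited counts, and p-values were adjusted by Benjamini-Hochberg across every gene in the fit. Called means an adjusted p of at most 0.05. The Tfam islets over both sexes had sex as a term, and other fits had 1 mean per group. CPM in the text is on TMM-scaled library sizes, and TPM is as the authors deposited it. P-values measure the spread between the libraries that the titles number as biological replicates, and all tests were two-sided. The fits were tested on simulated data. Named beside the members are, per list and comparison, at most the 3 called genes with the smallest adjusted p, the 5 genes most like Areg, and the targeted genes. The members and lists were chosen with earlier results of these data known. Alternatives included the Wald test of DESeq2 1.42.0, DESeq2's size factors, no filter, other covariates and leaving out each library. List counts without single libraries were added after seeing the data. The values of 1 gene of the signal transducer list are not reported here.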

Additional observations from a re-analysis of the deposited data

Results flagged for a closer look

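In 5 of 67 sets of 4 to 10 libraries (1 gene in 1 group), the library at one end lay far from the rest of its group, where chance gives about 1 in 20. Replicate 4 of Clec16a KO on HFD had the highest Egfr of 5, at 17.7 CPM. Female Tfam KO replicate 2, which also had the lowest Areg of the Tfam KO islets (1.31 CPM), had the lowest Btc of 4, at 1.08 CPM. Replicate 1 of Clec16a KO on RFD had the highest Erbb2 of 4, at 1.77 CPM. Female Tfam control replicate 4 had the highest Hbegf of 5, at 13.3 CPM. Control replicate 2 on HFD had the highest Ereg of 6, at 0.0256 CPM, which was 1 read.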

How the results depend on the processing

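Counts here are of members other than Areg called by edgeR's quasi-likelihood test. Fits that each dropped 1 library gave 3 to 5 in the Tfam islets (5 with all), 1 to 4 in females (1), 1 to 4 in males (5), 1 to 3 in the Clec16a islets on RFD (3), 0 to 1 in Mfn DKO livers (1), 1 to 5 in Tfam KO livers (2) and 0 to 4 between the knockout livers (0). Calls over all genes moved in the same fits, from 3096 to 4995 in the Tfam islets, 1336 to 2626 in females and 578 to 1543 in males. They ran from 523 to 1224 on RFD, 686 to 1444 in Mfn DKO livers, 2504 to 7330 in Tfam KO livers and 24 to 4204 between the knockout livers. In females the count was 3 with no low-count filter, 3 with DESeq2's Wald test and 2 with the acinar covariate. The Wald test called 1 member, Erbb2, for the difference between the sexes. The counts over all genes under these settings, and under the replicate block below, are not given here.

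Libraries with the same replicate number were little alike: the median correlation of their residuals was 0.0654, -0.0162 and 0.0872 in the 3 experiments. The libraries closest to their own number were 6 of 12, 1 of 18 and 4 of 11. No chance level was worked out for these counts, so pairing by number was not excluded. With the replicate block the count was 2 in females, 2 in males, 0 in Mfn DKO and 1 in Tfam KO livers, and the log2 differences of Areg by diet in controls (-0.094) and of Ereg in Mfn DKO livers (-0.10) changed sign.

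Signs changed without single libraries only for differences that were not called, with these log2 ranges. Erbb2 ran from -0.038 to 0.51 in the Tfam islets, -0.17 to 0.030 on RFD, -0.26 to 0.10 on HFD, -0.11 to 1.11 in Tfam KO livers and -0.25 to 0.97 between the knockout livers. Btc ran from -0.21 to 0.24 on RFD and -0.079 to 0.050 on HFD, and Areg by diet in controls from -0.21 to 0.44. In Mfn DKO livers Ereg ran from -0.033 to 0.27, Tgfa from -0.046 to 0.16 and Egf from -0.31 to 0.076. In Tfam KO livers Egf ran from -0.25 to 0.66 and Egfr from -1.65 to 0.042, and between the knockout livers Egf from -0.18 to 0.73. The causes were not tested. Over all the alternatives, of the other single-gene values 48 lost their call, 31 became called, 9 were marked as moved and 1017 did none of these. Among the 1017 are values that carry no call, such as changes of Areg against control. Group sizes of 2 to 6 and a few reads for Areg in controls and Ereg in islets limit precision.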
